A study of Mus musculus with 18 samples.

Results

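The Sox genes described here are Sox2, Sox4, Sox5, Sox6, Sox7, Sox9, Sox10, Sox11, Sox17 and Sox18, measured in mouse embryonic fibroblasts (MEFs) with and without a working copy of Tdg. They are 10 of 12394 genes and 23 of 20393 probe sets with 1 gene symbol on the MEF arrays. The genes were chosen by their measured difference between the same MEF groups, with Sox2 and Sox11 set against the other 8 genes, so their values in that contrast are given as a description, with no p-value, and counts of calls among them are printed only beside the share over all probe sets. The study compared cells that lack thymine DNA glycosylase, which excises mispaired thymine and oxidised forms of methylcytosine during base excision repair, with cells that keep 1 allele. The MEFs carried the genotype Tdg+/- (clone 4) or Tdg-/- (clone 9), were immortalised with SV40 and were grown in DMEM with fetal calf serum. There were 3 Affymetrix arrays for each genotype. Each genotype was 1 clone, so clone and genotype cannot be told apart, and no wild-type MEFs were analysed here. The labels do not say whether the 3 samples of a genotype were separate cultures, so every p-value below reflects the variation among these arrays alone, and that variation may be technical. The study also holds embryonic stem cells and neuronal precursors of both genotypes, from which no Sox value was taken because probe names and values on those arrays did not go together.

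Sox proteins bind DNA in the minor groove through a high-mobility-group (HMG) box and bend it, usually beside a partner factor. Sox2, of the SoxB1 subgroup, is a factor of pluripotent and neural stem cells, and the SoxC genes Sox4 and Sox11 act in neuronal differentiation and in mesenchymal progenitors. Sox5 and Sox6 (SoxD) work with Sox9 (SoxE) in cartilage, Sox10 (SoxE) acts in neural crest and glia, and Sox7, Sox17 and Sox18 (SoxF) act in endothelium. Fibroblast lines are not a usual site of Sox2 expression.

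Expression is given as the deposited log2 values, whose array medians lay between 7.38 and 7.42. They carry no detection call, so 33 probe sets of olfactory receptor genes, which fibroblasts are not known to express, served as a rough guide to the low end of the scale. Their median was 6.29, the 95th percentile of their means 7.25 and their highest single value 8.29 (log2). A probe set's level depends on its sequence, so levels are not ranked between Sox genes. The 3 Tdg probe sets, which also match Tdg pseudogenes, were 3.46-fold, 6.30-fold and 4.79-fold lower in Tdg-/- MEFs (limma, Benjamini-Hochberg adjusted p = 0.00351, 0.000726 and 0.00543), with no overlap between genotypes. The labels do not state the extent of the Tdg deletion, so the position of these probe sets relative to it is unknown. Replicate 1 of the Tdg+/- MEFs stood apart. Its Pearson correlation with the other two Tdg+/- arrays was 0.962 and 0.953 over probe sets, against 0.997 between those arrays and at least 0.996 within the Tdg-/- group. Results that rest on this array are given with and without it.

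Sox2 was high in every Tdg-/- sample and low in every Tdg+/- sample. Its 1 probe set (1416967_at) read 5.07, 4.70 and 4.74 in Tdg+/- replicates 1 to 3, and 8.48, 8.63 and 8.64 in the Tdg-/- replicates (log2). The Tdg+/- values lay under the olfactory receptor median and all 3 Tdg-/- values above the olfactory 95th percentile, and the groups were separated by 3.41 on the log2 scale. The mean was 4.83 ± 0.20 in Tdg+/- and 8.58 ± 0.09 in Tdg-/- MEFs (SD, n = 3), a log2 fold change of 3.75 ± 0.12 (SE), or 13.4-fold. Without Tdg+/- replicate 1 it was 3.86 ± 0.08 (SE). The size therefore did not rest on the array that stood apart. Because the lower group sits at the low end of the scale, the fold may be understated.

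Sox11 was also higher in every Tdg-/- sample. Its probe set (1436790_a_at) read 5.42, 6.39 and 6.63 in the Tdg+/- replicates and 8.04, 8.25 and 8.22 in the Tdg-/- replicates (log2). The groups did not overlap, and the lowest Tdg-/- sample lay 1.41 above the highest Tdg+/- sample. The Tdg+/- mean lay under the olfactory receptor median of 6.29 only through replicate 1, while replicates 2 and 3 lay above it. All Tdg-/- values lay above the olfactory 95th percentile, which is taken over means, but under the highest single olfactory value of 8.29. The Tdg+/- samples were spread more widely than the Tdg-/- samples, because replicate 1 lay 1.09 below the mean of the other two. The means were 6.15 ± 0.64 and 8.17 ± 0.11 (log2, SD, n = 3), and the log2 fold change was 2.02 ± 0.30 (SE), or 4.06-fold. With Tdg+/- replicate 1 left out it was 1.66 ± 0.10 (SE), or 3.16-fold.

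The promoter windows of Sox2, Sox11 and Sox4 are shown because Sox2 and Sox11 were both higher in Tdg-/- samples, Sox4 is the SoxC relative of Sox11 that was not, and cytosine in CpG is the base whose modified forms Tdg acts on. The windows run from 250 bases before to 50 after the gene start in RefSeq annotation of GRCm38.p6, written 5′ to 3′ in the direction of the gene with each CpG in capitals. The Sox2 window is chr3:34649745-34650044 on the plus strand, the Sox11 window chr12:27342669-27342968 on the minus strand and the Sox4 window chr13:28953650-28953949 on the minus strand.
Sox2: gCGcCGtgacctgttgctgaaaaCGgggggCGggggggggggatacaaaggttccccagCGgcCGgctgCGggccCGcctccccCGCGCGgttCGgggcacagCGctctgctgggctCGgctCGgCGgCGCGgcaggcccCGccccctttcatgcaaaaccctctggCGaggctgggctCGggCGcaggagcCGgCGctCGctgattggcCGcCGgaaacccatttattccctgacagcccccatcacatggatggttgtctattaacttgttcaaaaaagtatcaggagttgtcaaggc
Sox11: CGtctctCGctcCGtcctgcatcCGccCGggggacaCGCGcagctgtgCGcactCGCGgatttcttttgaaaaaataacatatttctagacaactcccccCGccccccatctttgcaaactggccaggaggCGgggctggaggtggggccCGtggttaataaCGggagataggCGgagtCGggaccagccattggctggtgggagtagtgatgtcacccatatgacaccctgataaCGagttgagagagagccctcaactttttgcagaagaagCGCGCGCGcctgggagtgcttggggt
Sox4: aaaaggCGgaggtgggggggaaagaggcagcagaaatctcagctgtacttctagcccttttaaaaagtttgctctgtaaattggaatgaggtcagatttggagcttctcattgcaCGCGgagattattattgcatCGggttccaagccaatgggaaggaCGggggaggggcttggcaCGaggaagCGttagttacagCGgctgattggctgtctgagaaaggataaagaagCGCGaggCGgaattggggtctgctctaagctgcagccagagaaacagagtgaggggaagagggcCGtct

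The Sox2 window held 27 CpG at 66.3% G and C, and the Sox11 window 21 CpG at 58.7%. The Sox4 window held 12 CpG at 52.0%. Fewer CpG than these were found in 84.5%, 75.2% and 60.4%, respectively, of 32851 RefSeq windows of the same length, whose median was 7. The ratio of observed to expected CpG was 0.819 for Sox2, 0.817 for Sox11 and 0.679 for Sox4. No methylation was measured in these files, so the CpG content is a description of the sequence alone.

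On both strands, the letters GGGCGG were found 2 times each in the Sox2 and Sox11 windows and not in the Sox4 window, and 35.7% of all windows hold them. CCAAT was found 1 time in Sox2, 1 time in Sox11 and 4 times in Sox4, against 37.4% of all windows with at least 1. TATAAA and ACAAT, the latter a core of Sox binding motifs, were in none of the 3 windows, and 13.6% and 31.0% of all windows hold them. No matches in these windows overlapped, and the absence of a word says only that these letters are not in this window. Windows were also found for Sox5, with 3 CpG, and for 6 Sox6 starts, with 2 to 13 CpG. Sox5 and 5 of the 6 Sox6 windows held at most 11 CpG, fewer than the Sox4 window. The Sox6 window with 13 CpG held GGGCGG 4 times, and the Sox5 window and the other Sox6 windows did not hold it. ACAAT was found 1 time in the Sox5 window and 2 or 3 times in some Sox6 windows.

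**Figure D1:**
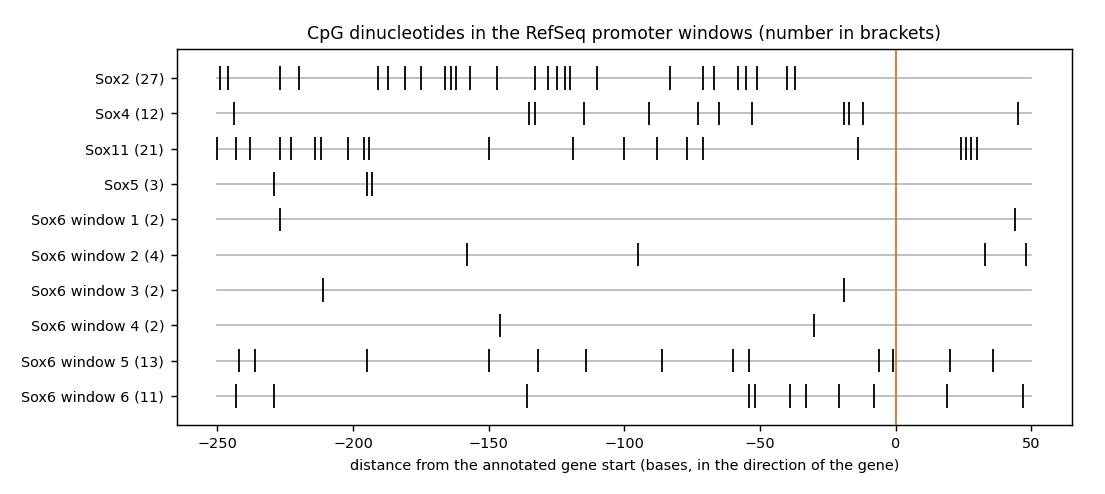
Positions of CpG dinucleotides (vertical marks) in the RefSeq promoter windows of Sox genes, by distance in bases from the annotated gene start (orange line), with the number of CpG in brackets. Sox2 has 27, Sox11 21, Sox4 12, Sox5 3 and the 6 Sox6 windows 2 to 13.

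Sox4, the other SoxC gene, did not show this pattern. Of its 6 probe sets none was higher in all Tdg-/- samples than in all Tdg+/- samples, and 3 were lower in all of them, where 21.1% and 16.5% of all probe sets on the array were. The probe set with the brightest mean signal (1433575_at) read 10.59, 10.998 and 11.09 in the Tdg+/- and 10.93, 10.84 and 10.89 in the Tdg-/- replicates (log2). These groups overlapped, and the log2 fold change was -0.01 ± 0.14 (SE), or -0.16 ± 0.08 without Tdg+/- replicate 1. A second probe set (1419155_a_at) read 10.00, 9.95 and 10.11 against 9.68, 9.53 and 9.49. There all Tdg-/- samples were the lower ones, with a log2 fold change of -0.45 ± 0.10 (SE). The probe set 1419157_at read 9.66, 10.17 and 10.26 against 9.71, 9.53 and 8.98, where Tdg-/- replicate 1 overlapped the Tdg+/- samples. Its log2 fold change was -0.62 ± 0.24 (SE), and -0.80 ± 0.17 without Tdg+/- replicate 1. The remaining 3 Sox4 probe sets had log2 fold changes between -0.37 and -0.16, so the Sox4 probe sets differed in size and none had a positive difference. The sign of 1433575_at was the same in only 5 of 9 alternative settings, among them the replicate block, where it could not differ.

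The SoxD genes Sox5 and Sox6, which encode partners of Sox9 that lack a transactivation domain, gave small or uneven differences. The 4 Sox5 probe sets had log2 fold changes from -0.57 to 0.02. The most negative (1423500_a_at) rested on 1 array and read 6.07 in Tdg+/- replicate 1, 4.87 and 4.82 in the other two Tdg+/- samples, and 4.68, 4.71 and 4.66 in the Tdg-/- samples. Without Tdg+/- replicate 1 its log2 fold change was -0.16 ± 0.07 (SE). The Sox6 probe set 1427677_a_at read 4.93, 4.98 and 5.04 in Tdg+/- and 5.26, 5.24 and 5.35 in Tdg-/- samples, so all Tdg-/- samples were higher, by 0.30 ± 0.09 (log2, SE). Both of its means lay under the olfactory receptor median, so expression of Sox6 was not established in either genotype. The other Sox6 probe set had a log2 fold change of -0.11 ± 0.19 (SE), and 0.10 ± 0.09 without Tdg+/- replicate 1.

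Sox9, the chondrocyte factor, differed between genotypes by less than the spread between samples. Its probe set 1451538_at read 6.69, 6.77 and 6.65 in Tdg+/- and 6.79, 6.66 and 6.72 in Tdg-/- samples (log2), and the groups overlapped. All values of both Sox9 probe sets lay under the olfactory 95th percentile, so expression of Sox9 was not established in either genotype. The log2 fold changes of its 2 probe sets were 0.02 ± 0.09 and -0.15 ± 0.17 (SE), and without Tdg+/- replicate 1 they were 0.02 and 0.04. Their sign was the same in 7 and 8 of 9 alternative settings, among them the replicate block, where it could not differ. For Sox10, the neural crest and glial factor, the 3 probe sets had log2 fold changes of -0.35 ± 0.15, -0.08 ± 0.09 and -0.55 ± 0.26 (SE). Without Tdg+/- replicate 1 the first (1451689_a_at) was -0.22 ± 0.10 and the second -0.09 ± 0.08 (SE). The third (1425369_a_at) read 7.32 in Tdg+/- replicate 1, 6.36 and 6.37 in the other two, and between 6.09 and 6.21 in Tdg-/- samples. All Tdg-/- samples were below all Tdg+/- samples there, but the difference was -0.23 ± 0.08 (SE) once replicate 1 was left out.

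The SoxF genes, factors of blood and lymph vessel endothelium, gave small differences or differences carried by 1 array. Sox7 read 5.97, 5.97 and 5.88 in Tdg+/- and 5.73, 5.70 and 5.66 in Tdg-/- samples (log2). All Tdg-/- samples were lower, by a log2 fold change of -0.24 ± 0.08 (SE), at levels under the olfactory receptor median. Sox17 (1421657_a_at) read 7.96, 6.34 and 6.19 in Tdg+/- and 6.31, 6.13 and 6.06 in Tdg-/- samples. Its log2 fold change of -0.66 ± 0.45 (SE) became -0.10 ± 0.09 without Tdg+/- replicate 1, which lay 1.70 above the mean of the other two. The second Sox17 probe set had 0.01 ± 0.13 (SE). Sox18 read 7.13, 6.59 and 6.53 against 6.54, 6.51 and 6.50, and its log2 fold change went from -0.23 ± 0.17 to -0.04 ± 0.07 (SE) in the same way. All Sox18 values lay under the olfactory 95th percentile, so its expression was not established in either genotype.

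**Figure D2:**
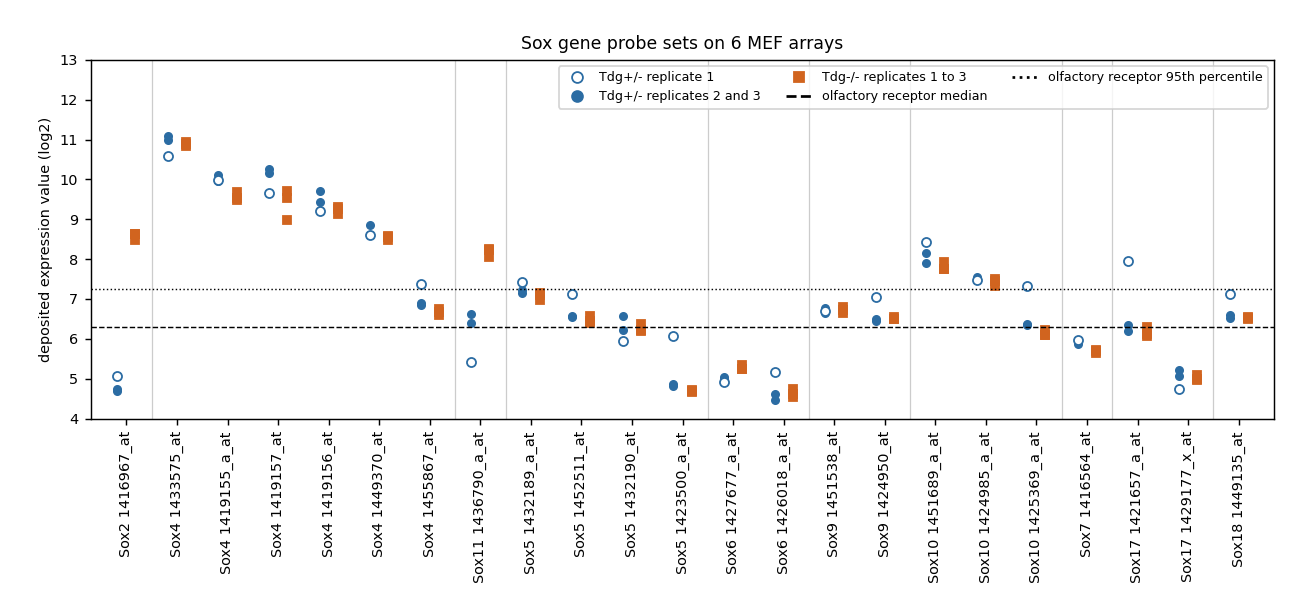
Deposited expression values (log2, vertical axis) of the 23 Sox probe sets on the 6 MEF arrays, with Tdg+/- replicate 1 as open circles, Tdg+/- replicates 2 and 3 as filled circles and Tdg-/- replicates as squares. The dashed and dotted lines mark the median and 95th percentile of olfactory receptor probe sets, at 6.29 and 7.25. Sox2 and Sox11 are the probe sets with a wide gap between genotypes.

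Across the family, 3 of the 23 probe sets had all Tdg-/- samples above all Tdg+/- samples (Sox2, Sox11 and 1 of Sox6), against 21.1% of all probe sets. All Tdg-/- samples lay below all Tdg+/- samples for 7, against 16.5% of all probe sets. In the limma fit over all 20393 probe sets, with a Benjamini-Hochberg adjusted p under 0.05 as the threshold, 2 of the 23 were called higher, those of Sox2 and Sox11, where 2.01% of all probe sets were. None was called lower, where 1.08% of all were, and 3 had an unadjusted p under 0.05 in that direction, as did 1398 of the 20393. In the higher direction 3 of the 23 had an unadjusted p under 0.05, and 2792 of the 20393. Counted by gene, with 1 probe set each, 2.16% of genes were called higher and 1.21% lower. The rule used this contrast, so nothing is read from these counts.

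Leaving out Tdg+/- replicate 1 moved these counts. Then 3 Sox probe sets were called higher, with Sox6 1427677_a_at added, where 11.7% of all probe sets were, and 3 were called lower, all of Sox4, where 6.87% of all were. The Sox4 probe sets were 1419155_a_at, 1419157_at and 1419156_at. These counts come from the contrast that chose the genes, and nothing is read from them either. Over all the alternative settings the log2 fold change lay between 3.68 and 3.86 for Sox2 and between 1.66 and 2.27 for Sox11.

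The 21 probe sets of the other 8 Sox genes had log2 fold changes from -0.66 to 0.30, with a median of -0.21, beside a median of -0.01 over all probe sets. Of these, 17 were negative and 4 positive, and the numbers without Tdg+/- replicate 1 were also 17 and 4, although some probe sets changed sign. With all arrays 51.6% of all probe sets and 90.9% of the olfactory receptor probe sets were negative. Tdg+/- replicate 1 read above every other array for 10 of the 21 (47.6%), against 33.2% of all probe sets. For the 14 whose mean lay under the olfactory 95th percentile, replicate 1 was above both other Tdg+/- arrays in 9. Its median difference from their mean was 0.54 (log2). Without it the median of the 21 was -0.13, in a range from -0.80 to 0.27, and the median over all probe sets was -0.03. Without that array the differences of Sox5 1423500_a_at, Sox10 1425369_a_at, Sox17 1421657_a_at and Sox18 were smaller in size, while those of Sox4 were larger for 5 of 6 probe sets.

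**Figure D3:**
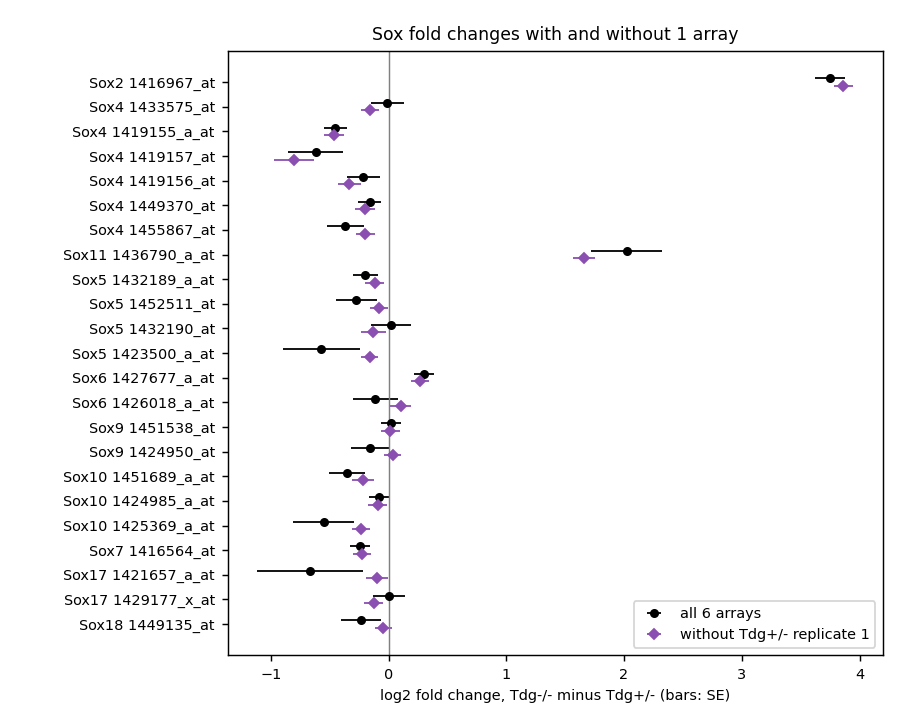
Log2 fold changes (Tdg-/- minus Tdg+/-, horizontal axis, bars are standard errors) of the 23 Sox probe sets with all 6 arrays (black circles) and without Tdg+/- replicate 1 (purple diamonds). Without that array Sox2 moves from 3.75 to 3.86, Sox11 from 2.02 to 1.66 and Sox17 1421657_a_at from -0.66 to -0.10.

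Beyond the 10 genes, 8 more of the Sox family were measured: Sry, Sox1, Sox3, Sox12, Sox13, Sox14, Sox15 and Sox21. None passed the limma test (adjusted p from 0.230 to 0.733), and 1 had an unadjusted p under 0.05. Their median log2 fold change was -0.31, and -0.02 without Tdg+/- replicate 1. Sox1 and Sox3, the SoxB1 relatives of Sox2, had log2 fold changes of -0.55 ± 0.37 and -0.36 ± 0.28 (SE), and -0.10 and -0.02 without that replicate. Sox12, the third SoxC gene, went from 9.18 ± 0.13 to 8.92 ± 0.09 (SD, n = 3; adjusted p = 0.230). Sox21, a SoxB2 gene that opposes SoxB1 factors in neural progenitors, differed by 0.34 ± 0.18 (log2, SE; adjusted p = 0.301) with all arrays. It was called higher without Tdg+/- replicate 1, at 0.53 ± 0.09 (SE, limma adjusted p = 0.00209), where 11.7% of all probe sets were. That replicate read 7.399 and the other Tdg+/- samples 6.96 and 6.70, against 7.398, 7.38 and 7.31 in Tdg-/- samples (log2).

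Genes that Sox2 regulates with Pou5f1 in embryonic stem cells did not pass the test. Of 11 measured, none passed the limma test in either direction, with or without Tdg+/- replicate 1, and none had an unadjusted p under 0.05. Pou5f1 differed by -0.50 ± 0.23 (log2, SE; adjusted p = 0.273). Nanog went from 5.10 ± 0.12 to 5.10 ± 0.04 (log2, SD, n = 3; adjusted p = 0.995). The means of both genes lay under the olfactory receptor median in both genotypes. The list's median was -0.25, and -0.06 without replicate 1. Among 9 POU factors, the partner family of Sox proteins, none passed, 2 had an unadjusted p under 0.05 in the higher direction, and the median was -0.45 (-0.18 without replicate 1). Without that array Pou3f3 was called higher, at 0.52 ± 0.09, and Pou4f3 lower, at -0.29 ± 0.08 (log2, SE; adjusted p = 0.00290 and 0.0325). That is 1 of the 9 in each direction, where 11.7% of all probe sets were called higher and 6.87% lower without that array. The 3 measured Tcf and Lef genes, which share the HMG box, had a median of -0.32 (-0.06 without replicate 1). None of them passed, with 1 at an unadjusted p under 0.05. Over all genes, 2.16% were called higher and 1.21% lower with all arrays. The gene lists, here and below, were chosen with earlier results of these data known, so their counts and p-values are a description.

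Of 15 neural progenitor genes linked to SoxB1 factors, 3 rose, none fell and 12 did not pass. Over all genes, 2.16% were called higher and 1.21% lower with all arrays. Nes, which encodes the intermediate filament nestin, rose from 9.88 ± 0.03 to 10.81 ± 0.14 (log2, SD, n = 3), or 1.90-fold (adjusted p = 0.00724), although only 1 of its 3 probe sets had that direction. Ccnd1, encoding cyclin D1, rose 1.86-fold (adjusted p = 0.0301). Zic1, a zinc finger gene of the neural tube, rose 1.64-fold (adjusted p = 0.0313), with both means under the olfactory receptor median. The list's median was -0.09, and without Tdg+/- replicate 1 it was -0.10 with 4 higher and 1 lower. Of all probe sets, 11.7% were called higher and 6.87% lower without that array. Ccnd1 and Zic1 did not pass without Tdg+/- replicate 2 or any 1 Tdg-/- array, nor Zic1 without Tdg+/- replicate 3, with adjusted p up to 0.180 and 0.178. Nes did not pass without Tdg+/- replicate 2 or Tdg-/- replicate 1 or 3 (adjusted p up to 0.0638).

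Among 11 neuronal genes linked to SoxC factors, 3 rose, none fell and 8 did not pass, with a median of -0.06. Over all genes, 2.16% were called higher and 1.21% lower with all arrays. Ncam1, the neural cell adhesion molecule gene, rose 1.82-fold (adjusted p = 0.0164). Tead2, a transcription factor gene that is a known Sox4 and Sox11 target, rose 1.77-fold (adjusted p = 0.0463), and Gap43, a growth cone gene, 1.66-fold (adjusted p = 0.0377). Of the Ncam1 probe sets 4 of 6 had that direction. None of the 3 passed without Tdg+/- replicate 2 or any 1 Tdg-/- array, nor Gap43 without Tdg+/- replicate 3, with adjusted p up to 0.124 for Ncam1, 0.236 for Tead2 and 0.198 for Gap43. Tubb3, a neuronal tubulin gene, differed by 0.71 ± 0.42 (log2, SE, limma adjusted p = 0.335) with all arrays. The adjusted p was 1.94e-05 without Tdg+/- replicate 1. That replicate read 7.86 and the other Tdg+/- samples 6.23 and 6.35, against 7.37, 7.48 and 7.74 in Tdg-/- samples (log2). Without Tdg+/- replicate 1, 5 genes of the list were higher and 1 lower, with a median of -0.16. Of all probe sets, 11.7% were then called higher and 6.87% lower. The list's median was 0.12 without Tdg+/- replicate 2.

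In the cartilage list of the Sox5, Sox6 and Sox9 trio 1 of 13 genes rose and none fell. Over all genes, 2.16% were called higher and 1.21% lower with all arrays. Col2a1, the type II collagen gene, went from 7.94 ± 0.25 to 9.91 ± 0.12 (log2, SD, n = 3), or 3.90-fold (adjusted p = 0.00208), and passed in each fit that left out 1 array. The other 12 did not pass, and the median was -0.24 (-0.08 without Tdg+/- replicate 1). Of 12 Sox10-linked genes of neural crest and glia none passed, with 1 in each direction at an unadjusted p under 0.05 and a median of -0.16. Without Tdg+/- replicate 1 that list had 1 higher and 1 lower and a median of -0.13. Of all probe sets, 11.7% were then called higher and 6.87% lower. Among 14 endothelial genes linked to SoxF factors, Vcam1, an adhesion receptor gene, rose 2.10-fold (adjusted p = 0.0362) and Kdr, a receptor for vascular endothelial growth factor, fell 1.50-fold (adjusted p = 0.0404). Neither passed without Tdg+/- replicate 2, Tdg+/- replicate 3 or any 1 Tdg-/- array (adjusted p up to 0.195 for Vcam1 and 0.231 for Kdr). With all arrays 1 of the 14 was thus called higher and 1 lower, where 2.16% and 1.21% of all genes were. The endothelial median was -0.24, and -0.10 without replicate 1.

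Some markers of the labelled cell type moved with the contrast. Of 14 fibroblast markers, 13 had a Tdg+/- mean above the olfactory 95th percentile and 12 a Tdg-/- mean above it. The list was chosen with earlier results of these data known, so its counts and p-values are a description. In Tdg-/- MEFs 7 of the 14 fell and none rose, with a median of -0.53. Of all genes, 1.21% were called lower and 2.16% higher with all arrays. Without Tdg+/- replicate 1, 10 fell and 1 rose, where 6.87% of all probe sets were called lower and 11.7% higher. Postn, a matricellular protein gene, fell 7.60-fold (adjusted p = 0.000677) and Pdgfra, a growth factor receptor gene, 2.35-fold (adjusted p = 0.00456). Thy1 fell 2.26-fold (adjusted p = 0.00349) and the collagen gene Col3a1 2.21-fold (adjusted p = 0.00720). Of these 4, Postn, Pdgfra and Thy1 passed in each fit that left out 1 array, and Col3a1 did not pass without Tdg+/- replicate 2 or Tdg-/- replicate 1 or 3 (adjusted p up to 0.0619). Without Tdg+/- replicate 2 or Tdg-/- replicates 1 or 2 the number of markers that fell was 4, and without Tdg-/- replicate 3 it was 3. Markers with a positive difference were Pdgfrb, Col1a1, Vim and Fn1. Pdgfrb differed by 1.12 ± 0.24 (log2, SE, limma adjusted p = 0.0707) and was the marker that rose without Tdg+/- replicate 1. Col1a1, Vim and Fn1 differed by 0.15, 0.09 and 0.08 (log2) and did not pass. The summed level of the 14 markers was 15.52 to 15.57 in Tdg+/- and 15.25 to 15.33 in Tdg-/- samples (log2 of the sum of linear values). Their part in the Sox2 and Sox11 difference was not tested. In these bulk samples, fewer cells of a type and less RNA per cell cannot be told apart.

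Epithelial and haematopoietic markers did not pass the test with all arrays. Of 8 epithelial and 6 haematopoietic markers none passed the limma test, and none had an unadjusted p under 0.05. The epithelial median was -0.10 and the haematopoietic median -0.15, and without Tdg+/- replicate 1 they were -0.03 and -0.12. The summed epithelial level was 9.37 to 9.68 in Tdg+/- and 9.36 to 9.43 in Tdg-/- samples, and the haematopoietic one 9.26 to 9.51 and 9.21 to 9.32 (log2). Above the olfactory 95th percentile in their group means were 1 of the 8 and 2 of the 6. Without Tdg+/- replicate 1, 1 epithelial marker was higher and no haematopoietic one changed. Of all probe sets, 11.7% were then called higher and 6.87% lower.

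**Figure D4:**
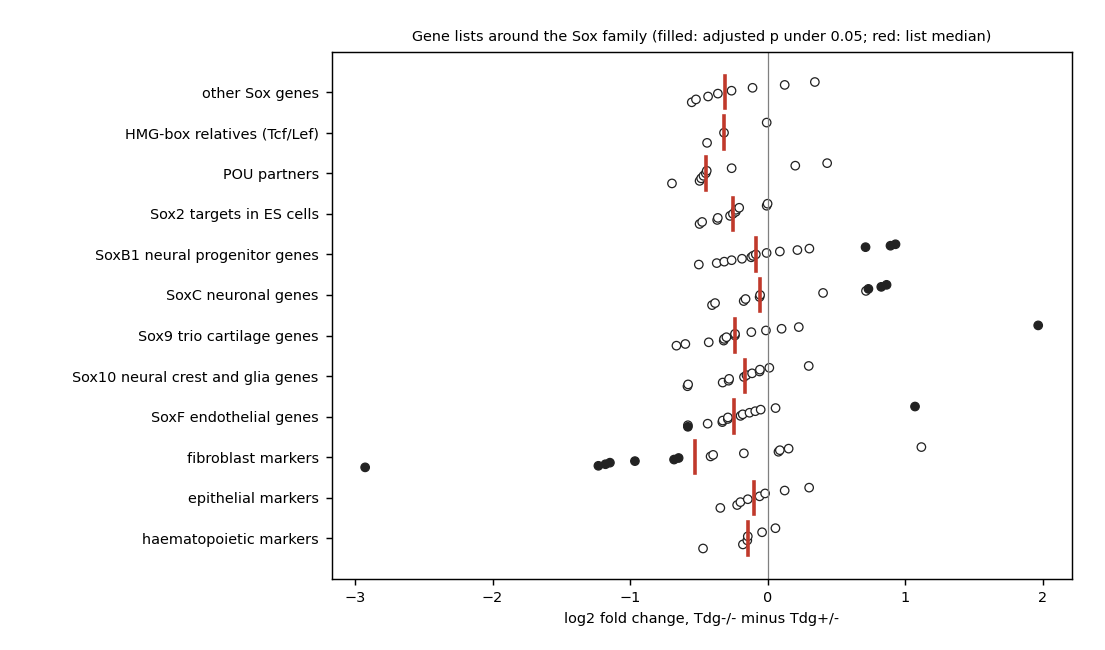
Log2 fold changes (Tdg-/- minus Tdg+/-, horizontal axis) of the genes in each list, 1 point per gene, filled where the limma adjusted p was under 0.05, with the list median in red. Col2a1 (1.97) and Vcam1 (1.07) are the filled points right of 1, and 7 of 14 fibroblast markers are filled on the left.

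Genes with the profile most like that of Sox2 and Sox11 were found by the root mean square difference of values centred on their mean over the 6 arrays. Sox2 had as neighbours En2, which patterns the midbrain-hindbrain region (0.39 on the log2 scale), Gpm6b, a neural membrane glycoprotein gene (0.66), Cdh2, encoding N-cadherin (0.67), the predicted gene Gm6958 (0.71) and Csrp2, a LIM-domain protein gene (0.81). Their log2 fold changes were 3.01, 2.51, 2.75, 2.37 and 2.30 in that order. That of Sox2 was the highest among all 20393 probe sets with 1 gene symbol, so no neighbour could exceed it. En2 read 6.29, 6.18 and 5.85 in Tdg+/- and 8.90, 9.16 and 9.29 in Tdg-/- samples. It was thus low and high in the same samples as Sox2. The neighbours of Sox11 were closer: Sh3d19 (0.16), the cathepsin C gene Ctsc (0.17), the beta-tubulin gene Tubb2b (0.19), Csrp2 (0.19) and the phosphodiesterase gene Pde8a (0.22). Their log2 fold changes were 1.76, 1.93, 1.71, 2.30 and 1.84. Tubb2b, a tubulin of developing neurons, read 5.68, 6.43 and 6.61 in Tdg+/- and 7.71, 8.16 and 7.99 in Tdg-/- samples, with replicate 1 the lowest, as for Sox11. Csrp2 was a neighbour of both. These genes were picked for their likeness, so the values are a description over 6 arrays that share 1 contrast, and Tdg+/- replicate 1 enters the measure.

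**Figure D5:**
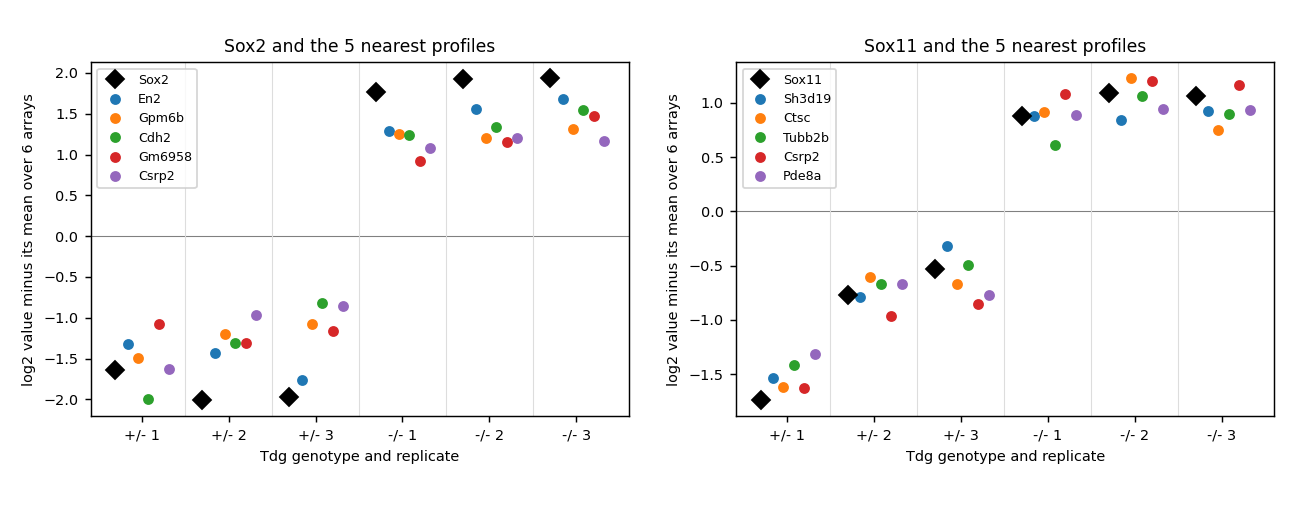
Log2 values minus their mean over the 6 MEF arrays (vertical axis) for Sox2 and Sox11 (black diamonds) and the 5 genes with the most similar profile (coloured circles), by array. Sox2 exceeds its neighbours in the Tdg-/- samples, and the neighbours of Sox11 share its low value in Tdg+/- replicate 1.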

How the data were processed

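Total RNA from 6 SV40-immortalised MEF samples was hybridised to Affymetrix arrays, and from 12 stem cell and neuronal precursor samples to Illumina arrays. Expression on the MEF arrays was taken as the log2 values that the authors deposited; MAS5, RMA, affy and limma are listed in the submitters' processing notes, without saying which one produced the values. For the other 12 arrays the authors deposited intensities that were not normalized, with a detection p-value for each probe, per the file headers. They were used in 1 check, made before any Sox value was read: the Spearman rho between mean levels by gene name and those on the MEF arrays was 0.04 for 11865 genes, where 0.3 was required. Detection was 40.3% for probes with ribosomal protein names and 38.4% for those with olfactory receptor names. The written test of Sox genes in those cells was therefore not run. Values from all 6 MEF arrays were used.

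Of 22690 Affymetrix probe sets, 20393 had 1 gene symbol, 691 several and 1606 none; 20364 were matched to RefSeq by gene identifier. Groups were compared over probe sets with limma 3.58.1 (lmFit, eBayes) in R 4.3.3, without covariates, with Benjamini-Hochberg adjustment and a threshold of 0.05. Where a gene of a list had several probe sets, the one with the highest mean was used. The model was tested on simulated data with 200 changed probe sets and independent noise. No simulated array stood apart, so that test does not cover the effect of Tdg+/- replicate 1. The members and the gene lists were chosen with earlier results of these data known. Genes named were all members, other Sox genes, Tdg, up to 4 changed genes per list, and the 5 nearest profiles of Sox2 and of Sox11. Pou5f1, Nanog, Tubb3, Pou3f3, Pou4f3, Pdgfrb, Col1a1, Vim and Fn1 are list genes chosen after their values were seen. Alternatives were quantile normalization, median centring, other probe set filters, a mean-variance trend, a 2-fold limit, a replicate block and leaving out each array. Leaving out arrays for the list counts, and applying the alternatives to the count of Sox probe sets, were chosen after seeing the data. Promoter windows come from RefSeq (GRCm38.p6), which gave windows for 5 of the 10 genes. The number of arrays limits the precision.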

Additional observations from a re-analysis of the deposited data

How the results depend on the processing

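With all arrays 631 probe sets were called, 410 higher and 221 lower in Tdg-/- MEFs. The count was 763 after quantile normalization, with 416 higher and 347 lower, so the share of higher calls went from 65.0% to 54.5%. It was 265 (169 higher) with a replicate block and 218 (139 higher) with a 2-fold limit, and stayed within 1.5 times under median centring (643), other filters (475 to 686) and a mean-variance trend (673). Leaving out 1 array gave 103 to 3792 calls, of which 59 to 2392 were higher, with 3792 without Tdg+/- replicate 1. Of the Sox probe sets 1 to 3 were called higher and 0 to 3 lower when 1 array was left out (Sox11 was not called without Tdg+/- replicate 2 or any 1 Tdg-/- array), which describes genes chosen on this contrast and supports nothing. Quantile normalization called 1 lower (Sox4 1419155_a_at). The sign of the fold change was the same under all 9 alternatives that refitted the arrays for 17 of 23 Sox probe sets, and in 5 for Sox4 1433575_at. Among these alternatives the replicate block leaves each fold change as it was, so its sign could not differ. The replicate numbers pair no samples by label. Same-numbered samples deviated together at correlations of 0.303, 0.048 and 0.272, and Tdg-/- replicate 2 correlated best with Tdg+/- replicate 3. With the replicate block Ccnd1, Gap43, Kdr, Sh3d19, Tead2, Vcam1 and Zic1 were not past the threshold (adjusted p from 0.0521 to 0.0932). The alternatives listed for Sox genes in stem cells and precursors were not run. Signal near the low end of the scale limits Sox5, Sox6, Sox7, Sox9, Sox17 and Sox18, and the Tdg+/- values of Sox2 and Sox11. For the other moved counts the cause was not tested.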
